A study of Zea mays with 2 samples.

Results

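Heat shock proteins and other chaperones help proteins to fold, keep unfolded chains from clumping and rescue proteins that stress has damaged. The expression of 35 probe sets for such proteins, from 25 maize genes, was compared between the stems of the dwarf mutant D11 and of its wild type (WT). The probe sets were found by gene name alone. They are those of the Affymetrix Maize Genome Array paired with 1 gene that is called hsp, hsbp, hsf, cpn, bip, pdi, pdil or crt with a number after it. The array holds 17621 maize probe sets, of which 1452 are paired with 1 gene, for 1108 genes in all. No gene named hsf with a number was found. The rule reads names and no signals, but it was set with earlier results of these data known.

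D11 is a dominant dwarf maize mutant with short internodes, found in a cross of the inbred lines Mo17 and HN06 and kept by backcrossing. Its stems at tassel emergence were compared with stems of the wild type, which is Mo17, at the same stage, and neither was treated. Total RNA of each was put on 1 array, so 2 arrays were compared. The labels name no backcross generation or nuclear background for the D11 plants, and effects of the mutation and of donor segments cannot be told apart here. Whether the RNA of several plants was pooled is not given in the sources used here.

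The values are MAS 5.0 signals, a measure of probe brightness on a linear scale that is set to a common mean on every array. With 1 array per genotype no error can be given, no test was made and each ratio has no replicate check. The 63 probe sets for spiked bacterial transcripts had log2 ratios (D11 over WT) from -0.46 to 0.41 with an SD of 0.20. This spread covers only the steps after each spike was added, such as hybridization and scanning. It may miss labelling for some of them and does not cover differences between plants. The arrays also carry 23 Tag and TrpnX controls without a maize target. Their highest signal was 27.6, and signals under this floor were raised to it before a ratio was taken.

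Cells hold chaperones in each compartment. In the cytosol, HSP100 pulls aggregated proteins apart, HSP70 binds unfolded chains and small heat shock proteins hold damaged proteins in a state from which they can refold. In the endoplasmic reticulum (ER), the HSP70 protein BiP, the lectin chaperones calreticulin and calnexin, and protein disulfide isomerases (PDI) fold secreted and cell wall proteins. Mitochondria and plastids have barrel-shaped chaperonins of the CPN60 type. By the names of the genes, 5 probe sets were placed in the cytosol, 21 in the ER and 3 in organelles. One is for a regulator of heat shock factors, and 5 could not be placed by name. The placing is by family name and was not measured.

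No chaperone probe set differed between the stems by 2-fold or more. Such a difference was found for 5.45% of all maize probe sets in the direction of D11 and for 3.04% in that of WT. At 1.5-fold, 2 of the 35 probe sets were higher in D11, against 13.0% of all maize probe sets, and none was lower, against 8.11%. Both of the higher ones belong to 1 gene, PDIL1-3. Of the 35, 32 were above the floor in both stems and 3 in neither, so none was above it in 1 stem alone. The 32 had log2 ratios from -0.54 to 0.72 on the deposited scale, where 27 of them lay within the range of the spike controls, 4 above it and 1 below it. Under the other 3 scalings of the arrays (median centring, quantile normalization and lowess centring), with the spike controls scaled alike, 4 to 8 were above the range and 0 or 1 below it. The share of all maize probe sets outside this range was not taken, so these counts do not set the chaperones apart from other genes. The SD of the log2 ratio was 0.33 for the 32 and 0.67 for the 12355 maize probe sets above the floor in both stems.

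Most chaperone probe sets are bright, which bears on these shares. The 27 that were over the array median in both stems (190.6 in D11 and 165.4 in WT) had a median log2 ratio of -0.10, and the median of all 8266 maize probe sets as bright as this was 0.05. Of those 8266, 3.28% reached 2-fold with the higher signal in D11 and 3.05% with the higher signal in WT. The shares were 11.3% higher and 9.05% lower at 1.5-fold, and among the 27 chaperone probe sets there were 2 higher and 0 lower. The median of all maize probe sets went from 0.06 for signals over the floor in both stems to -0.07 for signals over 1000 and -0.10 for signals over 2000. The chaperone median was -0.06 over the floor, -0.16 over 1000 and -0.15 over 2000, so on the deposited scale it was below that of all maize probe sets in each of these ranges. Over 1000, over 2000 and over the array median, it was below under each of the 4 scalings. For those over the array median, the lowess values were -0.04 for the chaperones and 0.02 for all. Over the floor the order depended on the scaling. It was turned with lowess centring, at 0.03 for the chaperones and 0.01 for all, and with quantile normalization, at -0.00011 and -0.03.

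**Figure D1:**
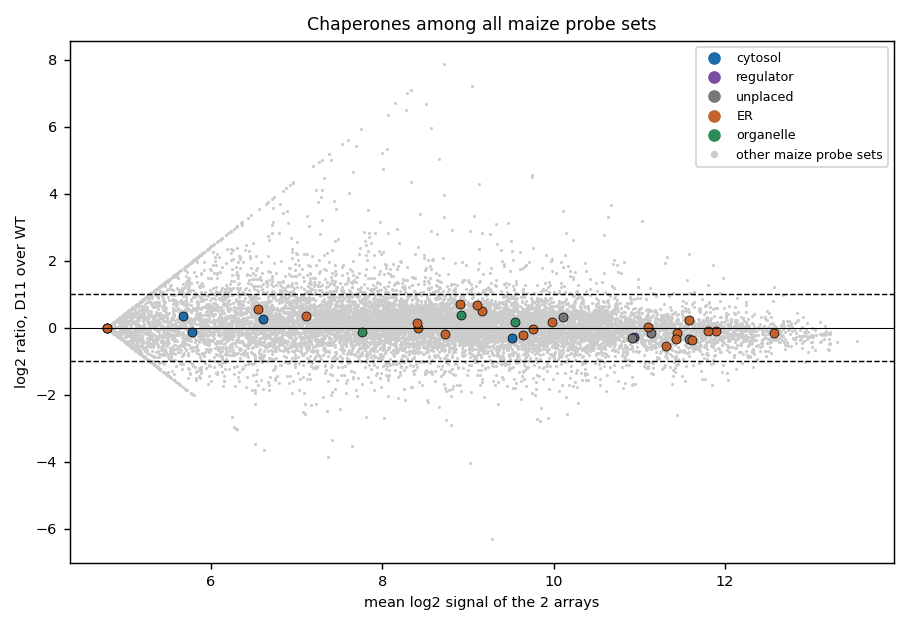
Log2 ratio (D11 over WT) against the mean log2 signal of both arrays, with signals under the control floor raised to it; grey points are the other maize probe sets and coloured points the 35 chaperone probe sets by compartment. All coloured points lie between the dashed 2-fold lines, from -0.54 to 0.72.

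In the cytosol, hsp101 (LOC541780) codes for the HSP100 protein that plants need to survive strong heat. It had 661 in D11 and 814 in WT, a log2 ratio of -0.30, and it was lower in D11 under each of the 4 array scalings tried, from -0.51 to -0.30. On the deposited scale the hsp101 ratio lies within the spike control range. The small heat shock protein genes gave weak signals in both stems. The gene hsp18a (LOC542293) had 106 in D11 and 89.5 in WT, a log2 ratio of 0.25, which fell to 0.02 with quantile normalization. The gene hsp18f (LOC542723) had 57.7 and 44.9, which is 0.36, and from 0.12 to 0.36 over the scalings. For hsp18c (LOC100037778), 1 probe set had 52.6 and 57.3, a log2 ratio of -0.12, and the other had 23.9 and 17.7, under the floor in both stems. The IDs of the hsp18c and hsp18f probe sets share the cluster number 16504, so these genes may share signal. All 4 small heat shock probe sets of the cytosol were under the array median in both stems.

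The gene that carries the names hsp18 and hsp26 (LOC542576) could not be placed, as the names point to different compartments. It had 1.70 in D11 and 5.04 in WT, both far under the floor of 27.6, so no ratio is given. The quotient of these 2 signals is the only one among the 35 that would pass 2-fold without the floor.

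The HSP70 genes on the array could not be assigned to a compartment by name. The gene hsp70-4 had 2129.97 in D11 and 2365 in WT, a log2 ratio of -0.15. The gene hsp70-5 was read by 3 probe sets, which did not move together. One had 2721 in D11 and 3450.3 in WT (-0.34) and another 1732 and 2149.6 (-0.31), but a further one had 1234 in D11 and 980.03 in WT (0.33). Between these probe sets the log2 ratio varied by 0.67. The IDs of 2 of the 3 end in x_at, the ending given to probe sets with probes that can bind other transcripts. No direction is given for hsp70-5.

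The gene hsbp1 (LOC541966), also called empty pericarp2, codes for a protein that binds heat shock factors and dampens their activity. It had 1771 in D11 and 2156 in WT, a log2 ratio of -0.28, and was lower under each of the 4 scalings, from -0.49 to -0.22. Its value on the deposited scale lies within the spike control range. A gene for a heat shock factor itself, hsfb, has no number in its name and is not among the 35. Its signals were 170.2 and 205, a log2 ratio of -0.27.

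**Figure D2:**
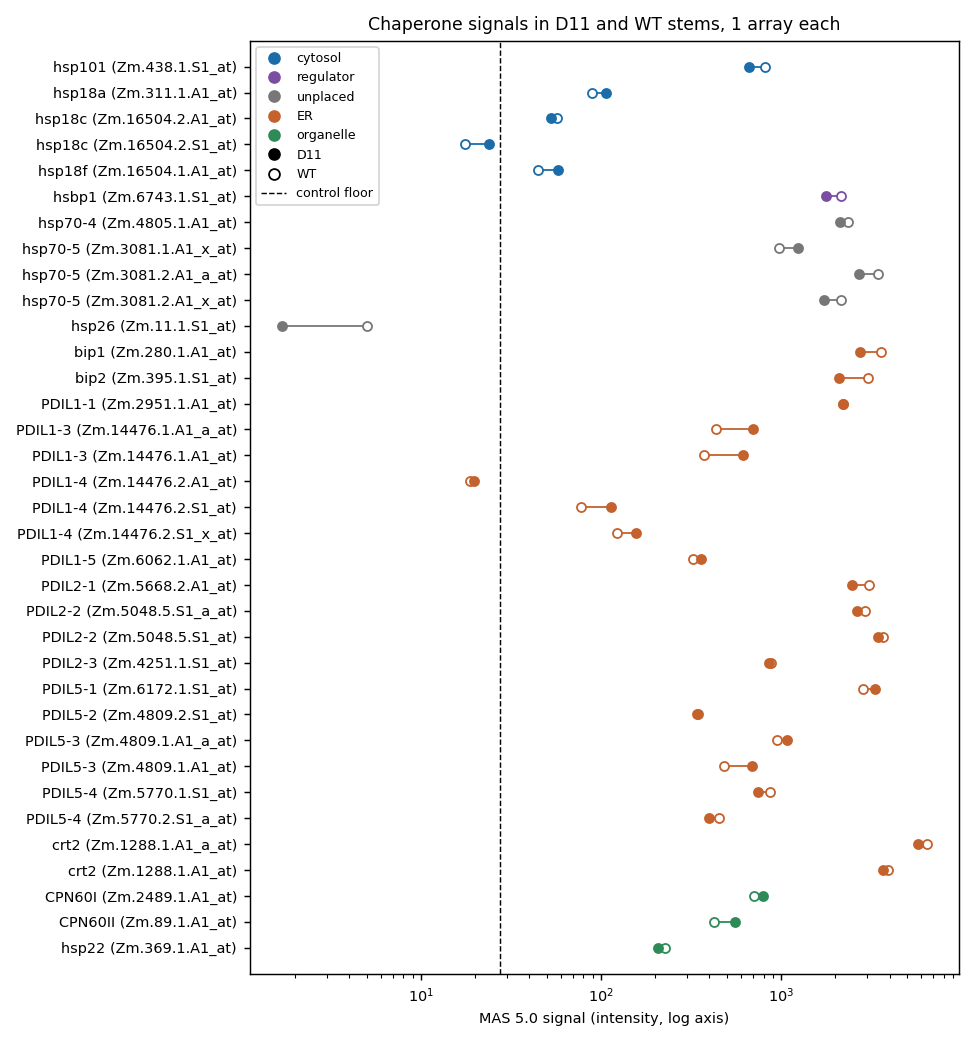
MAS 5.0 signal on a log axis of each of the 35 chaperone probe sets in the D11 stem (filled circles) and the WT stem (open circles), 1 array each, coloured by compartment; the dashed line is the control floor at 27.6. The circles of a pair lie close together except for hsp26, whose signals of 1.70 and 5.04 are both under the floor.

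In the ER, chaperones of different families lay on opposite sides of zero. Both BiP genes were lower in D11. The gene bip1 (LOC732808), also called b-70, had 2756 in D11 and 3579.9 in WT, a log2 ratio of -0.38, and bip2 (LOC732809) had 2107 and 3056, which is -0.54. BiP is the HSP70 protein of the ER, and its genes are known to be induced when unfolded proteins build up there. The ratio of bip2 was the lowest of the 35 and the 1 value under the spike control range on the deposited scale. Both genes were lower in D11 under all 4 scalings, with bip1 from -0.58 to -0.26 and bip2 from -0.74 to -0.44. With lowess centring, which removes the dependence of the ratio on brightness, they were at -0.26 and -0.44, and the spike controls then ranged from -0.61 to 0.27, so bip2 lay within that range.

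The lectin chaperones, which bind sugar chains of new glycoproteins, were near to BiP or closer to zero. Calreticulin, gene crt2 (LOC542732), had 5773 in D11 and 6469 in WT on 1 probe set (-0.16) and 3675 and 3945 on the other (-0.10). Its direction turned with the scaling, as both probe sets were at 0.03 and 0.04 in the highest of the 4. Calnexin, gene CNX (LOC542421), misses the naming rule because its name holds no number, and it was added after some of the values had been seen. It was lower in D11 on the 3 probe sets above the floor in both stems, with log2 ratios of -0.25, -0.39 and -0.53, and signals such as 3042 in D11 and 4387 in WT for the last. On a further CNX probe set the D11 signal of 25.1 was under the floor and the WT signal was 42.5, which is at least 1.54-fold lower in D11.

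The PDI family, whose enzymes make and rearrange disulfide bonds, was measured by 17 probe sets for 11 genes, with a median log2 ratio of 0.02 (-0.06 with median centring). Its subgroups differed in their values. In the PDIL1 group, the 6 probe sets above the floor were all above zero, from 0.02 to 0.72, with a median of 0.46. This median was 0.22 to 0.30 under the other 3 scalings, and PDIL1-1 and PDIL1-5 turned below zero with median centring. Of the 6 PDIL1 probe sets, 2 each are of PDIL1-3 and PDIL1-4. The IDs of these genes share a cluster number, so the median may count shared signal more than once. In the PDIL2 group, 4 probe sets for 3 genes were all below zero, from -0.32 to -0.03, though 1 turned to 0.03 under another scaling. In the PDIL5 group, 3 of 6 were above and 3 below zero on the deposited scale. These are descriptions of 2 arrays, and no test of a difference between the groups was possible.

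PDIL1-3 (LOC606411, also pdi3) had the highest ratios of all the chaperones. One probe set had 699 in D11 and 433 in WT, a 1.62-fold difference, and the other 613 and 373, a 1.64-fold difference. On the log2 scale these are 0.69 and 0.72, above the highest spike control (0.41), and between 0.49 and 0.72 over the 4 scalings, in each of which they were above the spike range. The probe set IDs of PDIL1-3 and of its relative PDIL1-4 (LOC606412) share the cluster number 14476. PDIL1-4 gave weaker signals, 113.5 and 77.2 on 1 probe set (0.56) and 156 and 122 on another (0.36). The ID of the latter ends in x_at, so it has probes that can bind other transcripts. A further probe set of PDIL1-4, with 19.8 and 18.8, was under the floor in both stems. Both named genes were thus higher in D11 on each probe set above the floor, under all 4 scalings, but signal shared between them was not tested.

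The other PDIL1 genes were closer to equal. PDIL1-1 (LOC606409), the classical PDI of the ER, had 2217 in D11 and 2193 in WT, a log2 ratio of 0.02. PDIL1-5 (LOC606418) had 358 and 323, which is 0.15. Under the 4 scalings both changed sign.

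In the PDIL2 group, PDIL2-1 (LOC606413) had 2474 in D11 and 3091 in WT, a log2 ratio of -0.32. PDIL2-2 (LOC606414) had 2638 and 2917 on 1 probe set and 3437 and 3693 on the other, which are -0.14 and -0.10. PDIL2-3 (LOC606479) had 861 and 878, or -0.03. The first was lower in D11 under all 4 scalings, from -0.53 to -0.22. The other 2 genes came within 0.03 of zero, and 1 probe set of PDIL2-2 crossed it.

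In the PDIL5 group, PDIL5-3 (LOC606478) had 1075 in D11 and 944 in WT on 1 probe set (0.19, but -0.02 with median centring) and 688 and 481 on the other (0.52). PDIL5-1 (LOC606415) had 3328 and 2832, a log2 ratio of 0.23, and from 0.03 to 0.35 over the scalings. PDIL5-4 (LOC606417) was lower on both probe sets, with 740.06 and 867 (-0.23) and 398 and 453 (-0.19). PDIL5-2 (LOC606416) had 341 and 344, which is -0.02. The probe set IDs of PDIL5-2 and PDIL5-3 share the cluster number 4809, so these genes may share signal.

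**Figure D3:**
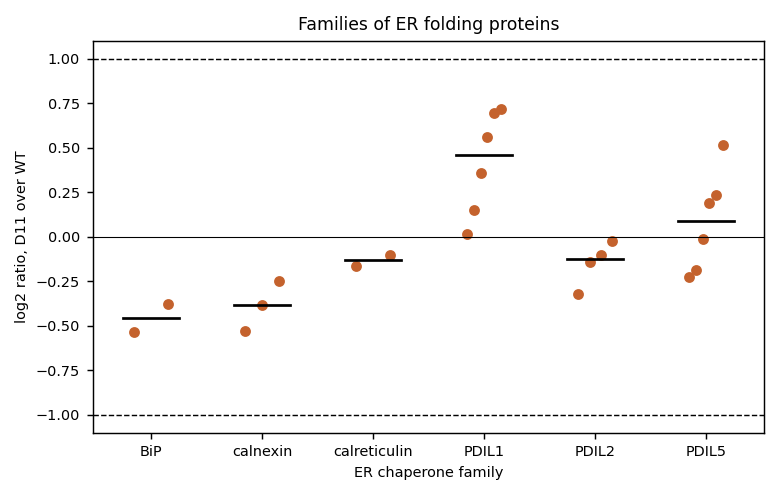
Log2 ratio (D11 over WT) of the probe sets above the floor in both stems for each family of ER folding proteins; points are probe sets, bars their medians and dashed lines 2-fold. The medians are -0.46 for BiP, -0.39 for calnexin, -0.13 for calreticulin, 0.46 for PDIL1, -0.12 for PDIL2 and 0.09 for PDIL5 on the deposited scale plotted. Over the 4 scalings those of calreticulin (-0.34 to 0.04) and PDIL5 (-0.12 to 0.09) change sign, and that of PDIL1 goes from 0.22 to 0.46. Of the 6 PDIL1 points, 2 each are of PDIL1-3 and PDIL1-4, which may share signal. PDIL5-2 and PDIL5-3 may also share signal. The calnexin points are all of the gene CNX, which misses the naming rule and was added after some of the values had been seen. The calreticulin points are all of crt2.

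In the organelles, both chaperonin genes had more signal in D11, except that CPN60I turned with median centring. CPN60I (LOC542736, also HSP60-1) had 791 in D11 and 706 in WT, a log2 ratio of 0.16, which median centring took to -0.04. CPN60II (LOC542707, also mtcpn60II, a mitochondrial chaperonin by name) had 554 and 424, which is 0.38, and from 0.18 to 0.38 over the scalings. The small heat shock protein gene hsp22 (LOC542602), whose product in maize is found in mitochondria, had 207 and 227, a log2 ratio of -0.13. All 3 values lay within the spike control range on the deposited scale, but CPN60II was just above it with quantile normalization (0.27 against 0.22) and lowess centring (0.28 against 0.27).

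The compartments differed little beside the spread within each. The median log2 ratio was 0.00 for the 5 probe sets of the cytosol, with an SD of 0.27. It was -0.02 for the 21 of the ER (-0.22 to 0.03 over the 4 scalings), with an SD of 0.35, and 0.16 for the 3 of organelles (-0.04 with median centring), with an SD of 0.26. The cytosolic median rests on weak signals. It is that of hsp18c at the floor, and without the floor it was 0.25, the value of hsp18a.

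**Figure D4:**
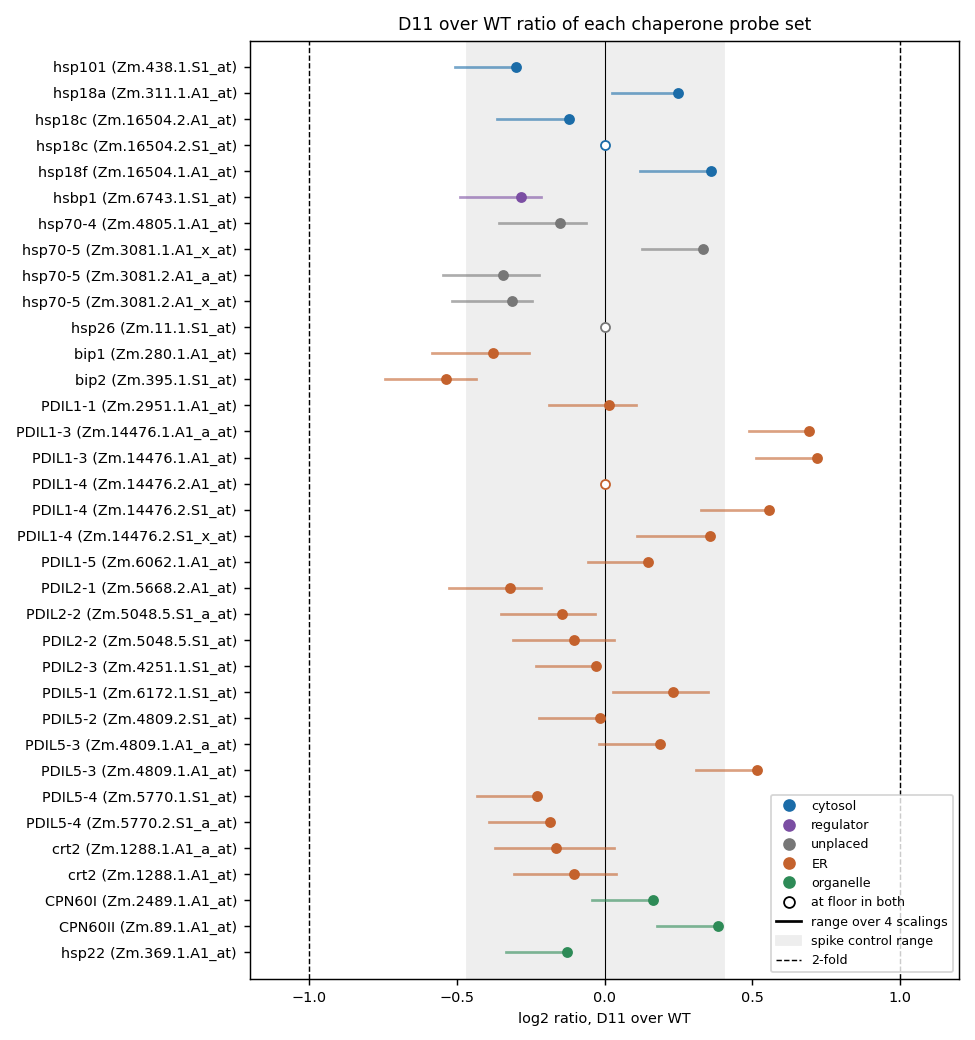
Log2 ratio (D11 over WT) of each of the 35 chaperone probe sets (points), with its range over 4 array scalings (lines); the grey band is the range of the 63 spike controls on the deposited scale, from -0.46 to 0.41, and dashed lines mark 2-fold. The 2 PDIL1-3 points lie farthest above the band, and bip2 is the 1 point below it.

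Agreement between probe sets of the same gene shows how alike different probe sets read a ratio. It gives no error for the difference between D11 and WT. For 7 genes with at least 2 probe sets above the floor, the pooled SD of the log2 ratio within a gene was 0.21, beside 0.20 for the spike controls. Most of the pooled squares came from hsp70-5, some of whose probes can bind other transcripts. The nearness of these SDs thus rests mainly on that gene. The probe sets of PDIL1-3 differed by 0.03, those of PDIL2-2 and PDIL5-4 by 0.04 and those of crt2 by 0.06. Those of PDIL1-4 differed by 0.20, of PDIL5-3 by 0.33 and of hsp70-5 by 0.67. Probe sets of the same gene can share probes, so they are not independent readings, and all were read on the same 2 arrays.

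Of other genes for protein folding and quality control that the array names, 19 probe sets for 11 genes were read, chosen by name after some of the values had been seen. None differed by 2-fold on the deposited scale, and the median log2 ratio of the 19 probe sets was -0.25. That median is itself the value of a calnexin probe set, and calnexin has more probe sets than any other of the 11 genes. It was not taken with each gene counted once, so it gives no direction for these genes as a group. The widest difference was that of bsd2, a chaperone of chloroplasts that serves the assembly of Rubisco. It had 310.4 in D11 and 584 in WT on 1 probe set (-0.91) and 480 and 717 on the other (-0.58). The first passed 2-fold under each of the 3 other scalings, from -1.12 to -1.02. The Rubisco small subunit gene rbcS had 4807 and 4514, a log2 ratio of 0.09, and the median of 13 probe sets for photosynthesis proteins was 0.02, with a range from -1.25 to 0.56.

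Among genes that remove misfolded proteins from the ER, derlin2 had 915 in D11 and 1203 in WT (-0.40). The 2 probe sets of derlin4 went opposite ways, with 690.4 and 924 (-0.42) and 528 and 356 (0.57). The gene derlin1 had 1082 and 947, a log2 ratio of 0.19 (-0.01 with median centring). The organelle protease gene lon1 had 1129 and 840 (0.43), and LON2 had 244 and 236 (0.05, but below zero under the other 3 scalings). For dad1, a subunit of the enzyme that puts sugar chains on proteins, the signals were 2548 and 2776 (-0.12). The probe sets of qsox1, which forms disulfide bonds, had opposite signs on the deposited scale, with 694 and 657 (0.08) on 1 and weak signals of 32.6 and 36.8 (-0.17) on the other. So had those of PNGase, which strips sugar chains from misfolded proteins, with 110.6 and 98.9 (0.16) and 92.3 and 115 (-0.31), and a further PNGase probe set was under the floor in both stems.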

How the data were processed

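RNA from 1 stem sample of D11 and 1 of WT was hybridized to the Maize Genome Array. The deposited values are intensities, which the authors made with the MAS 5.0 algorithm; GeneSpring is named for this in the paper's methods, and MAS5 with Affymetrix Expression Console in the submitters' processing notes. They were used as they stand, and detection calls were not used. Of 17734 probe sets, 113 controls were set aside. Gene names came from GEO's platform annotation, updated from the RefSeq gene table (Zm-B73-REFERENCE-NAM-5.0) for names only: 1452 probe sets had 1 gene, 1 had several, and the rest are unnamed here. The ratio was D11 over WT on the log2 scale. The floor for weak signals was the highest Tag or TrpnX control of either array. With 1 array per genotype there was no test, and precision is limited by the number of arrays. The members and lists were chosen with earlier results of these data known. Every member is named, with both of its signals. Compartments follow gene names, as no product names or sequences were used here. The other folding genes were chosen by name afterwards.

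The alternatives were deposited signals without the floor, 2 signal minimums, 24.7 (percentile 25 of all maize signals) added to each signal, median centring, quantile normalization, lowess centring (span 0.3), dropping probe sets with cross-binding probes, counting each gene once, and 1.5-fold and 5-fold thresholds. The 4 scalings in the text are the deposited one and the 3 of centring and normalization. The steps were tested on simulated data. Python 3.11.15 with numpy 2.4.6, pandas 2.3.3 and statsmodels 0.14.6 was used.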

Additional observations from a re-analysis of the deposited data

How the results depend on the processing

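No chaperone probe set passed 2-fold higher in D11 under any alternative at that threshold, and 1 passed 2-fold lower, hsp26, when signals under the floor were used as deposited. At 1.5-fold there were 2 higher and 0 lower, and at 5-fold 0 of each. Median centring, which lowers every ratio above the floor by 0.20, moved the median of all members from -0.02 to -0.22, that of the ER from -0.02 to -0.22 and that of organelles from 0.16 to -0.042. The cytosolic median, 0.00, was 0.25 with the deposited signals and -0.30 over the array median in both stems, where hsp101 is the 1 probe set left. Under the other alternatives these 4 medians moved by less than the SD of the spike controls, 0.20. Median centring moved the family medians that lie above the floor by the same 0.20, and quantile normalization took that of the 6 PDIL1 probe sets above the floor from 0.46 to 0.22. For single probe sets, 32 of 35 moved by more than this SD with median centring, 5 with quantile normalization, 2 without the floor and 0 with lowess centring or the offset. In all, 10 probe sets were higher in D11 and 15 lower under all 4 scalings, and 10 were mixed or at the floor. These counts are not balanced by design. As median centring lowers every ratio above the floor, it can take a probe set out of the higher count but not out of the lower one. The same counts over all maize probe sets were not taken, so no lean of the chaperones is read from them. With calnexin and hsfb added, a choice made after seeing the data, the median was -0.10. No paired analysis was possible because there was 1 array per genotype, and for the same reason no sample could be left out. Weak signals, near or under the floor of 27.6 for hsp18c, hsp18f and hsp26, limit the small heat shock proteins other than hsp22.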
